A study of Homo sapiens with 7 samples.

Results

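The ryanodine receptor genes RYR1, RYR2 and RYR3 and the inositol trisphosphate (IP3) receptor genes ITPR1, ITPR2 and ITPR3 encode the 2 families of calcium release channels of the endoplasmic and sarcoplasmic reticulum. The 6 genes were taken by name from 16810 protein-coding genes (5 kb or longer), and every 5-hydroxymethylcytosine (5hmC) peak that overlaps their RefSeq gene bodies was described. The set was chosen by its members' coverage, peak numbers and group-specific peaks, with the values of these libraries already known. These 3 measures are therefore given as a description of the members and not as a test.

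Both families form tetrameric channels that let stored calcium flow into the cytosol. IP3 receptors open when phospholipase C has made IP3, and ryanodine receptors open when calcium itself rises nearby or, in skeletal muscle, when a voltage sensor pulls on them. RYR1 is the channel of skeletal muscle, RYR2 that of the heart and the chief ryanodine receptor of the brain, and RYR3 is expressed more thinly in many tissues. ITPR1 is the main IP3 receptor of neurons, ITPR2 is prominent in liver, heart and astrocytes, and ITPR3 in secretory epithelia. The mark itself is made by TET enzymes from 5-methylcytosine and is known to be found over gene bodies in neural cells, with little at unmethylated CpG-rich promoters.

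The cells were SH-SY5Y, a human neuroblastoma line of sympathetic character, carrying a stable lentiviral short hairpin RNA. The control group, shNC, had a control hairpin, and the group shTDP43 had a hairpin against TDP-43, a DNA- and RNA-binding protein. Both were kept under puromycin, and both are stably transduced lines, which the labels do not describe as single clones. Labelled 5hmC was pulled down (hMe-Seal) and sequenced in 3 libraries of each group. The labels do not say that these came from separate cultures, so the spread between them may be technical.

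Each library has a peak list of its own, of 117949 to 157157 peaks in the shNC group and 119820 to 142605 in the shTDP43 group, which cover 80.8 to 111 Mb and 78.2 to 98.8 Mb. The second shNC library has the longest list on both measures, while the shortest is the first shNC library by number of peaks and the second shTDP43 library by covered length. Read depth is not given in the sources used here, and no interval for counting error was computed. A stretch with no peak may still hold 5hmC below the calling threshold, and peak lists hold no expression of TDP-43 or of any other gene. Of 8 noradrenergic marker genes of the line, 6 carried a peak in at least 1 list (HAND2 and PHOX2A did not) and the median coverage over the 8 was 19.1%. Of 7 muscle genes, where RYR1 and RYR2 are at home, 5 had no peak in any list (ACTA1, CKM, MYH6, MYOD1 and NKX2-5) and the median was 0. Mesenchymal neuroblastoma genes (7, 1 without a peak) had a median of 2.59% and glial and Schwann genes (5, 1 without a peak) 5.94%. Of the 16810 protein-coding genes, 12165 carried a peak in at least 1 list. Gene length was not taken into account for the markers, so nothing is read from their counts.

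No receptor promoter that could be looked up carried a peak. The promoter table, from RefSeq on build GRCh38.p14, holds 5 of the 6 genes (not ITPR2), each with a window of 300 bp around the gene start. In all 6 lists these 5 windows were free of peaks. Over the table's 13482 coding-gene promoters, 10.5% overlapped a peak in at least 1 list and 3.35% in all 6. The 250 bases upstream of the start are shown for the 3 genes that span the range from the nearest peak to the farthest, with every CpG, the site at which 5hmC mostly occurs, in capitals.
ITPR3 (chr6:33621072-33621321, plus strand): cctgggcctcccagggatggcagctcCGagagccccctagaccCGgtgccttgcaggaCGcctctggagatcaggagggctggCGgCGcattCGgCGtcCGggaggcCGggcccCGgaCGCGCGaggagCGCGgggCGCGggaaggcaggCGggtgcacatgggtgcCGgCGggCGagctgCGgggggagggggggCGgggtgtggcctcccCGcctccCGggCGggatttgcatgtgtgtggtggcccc
RYR2 (chr1:237041934-237042183, plus strand): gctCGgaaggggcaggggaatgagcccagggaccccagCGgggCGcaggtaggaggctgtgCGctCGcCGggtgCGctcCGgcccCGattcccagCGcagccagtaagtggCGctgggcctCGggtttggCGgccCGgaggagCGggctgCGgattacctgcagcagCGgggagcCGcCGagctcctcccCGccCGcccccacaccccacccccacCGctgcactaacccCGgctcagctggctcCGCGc
RYR1 (chr19:38433441-38433690, plus strand): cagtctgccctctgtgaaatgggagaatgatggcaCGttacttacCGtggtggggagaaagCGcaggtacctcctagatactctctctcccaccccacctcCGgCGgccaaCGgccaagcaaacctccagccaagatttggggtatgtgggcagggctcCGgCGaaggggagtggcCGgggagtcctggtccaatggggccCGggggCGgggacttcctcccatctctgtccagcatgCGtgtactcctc
The ITPR3 stretch holds 26 CpG, that of RYR2 25 and that of RYR1 12. Counted over the whole 300 bp window, ITPR3 had 33 CpG, RYR2 32, RYR3 27, ITPR1 19 and RYR1 16, against a median of 23 over the promoters of the table. The share of those promoters with fewer CpG was 75.3% for ITPR3, 73.0% for RYR2 and 32.7% for RYR1.

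Inside the genes, the first peak began at very different distances from the start. In ITPR3 it began 109 to 470 bp into the gene, in ITPR1 871 to 1842 bp and in RYR2 1689 to 1889 bp. In RYR3 the first peak came only after 47.4 to 56.7 kb, and in RYR1 after 95.7 to 96.0 kb in 5 libraries and 127 kb in the third shTDP43 library. Upstream, the last peak before RYR3 ended 6615 to 7008 bp from its start and that before RYR1 46.7 to 46.8 kb from its start. The 5′ part of RYR1 thus lay in a stretch without called peaks that began upstream of the gene. That stretch ran at least 95.7 kb into the gene in all 6 lists.

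The members spanned a wide range of peak coverage, with ITPR1 the most and RYR1 the least covered. Coverage is the percent of a gene's length that lies in peaks, so that genes of different length can be compared. The order was ITPR1, RYR2, ITPR3, ITPR2, RYR3 and RYR1. It held between ITPR1 and RYR2, and between RYR3 and RYR1, in 6 of 6 libraries. RYR2 was above ITPR3 in 5, ITPR3 above ITPR2 in 4 and ITPR2 above RYR3 in 5 of 6 libraries, so these neighbours are not separated beyond the spread. Among all 16810 genes, whose median of mean coverage was 1.89%, the mean of ITPR1 was higher than that of all but 1584 genes and that of RYR2 than that of all but 2758.

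**Figure D1:**
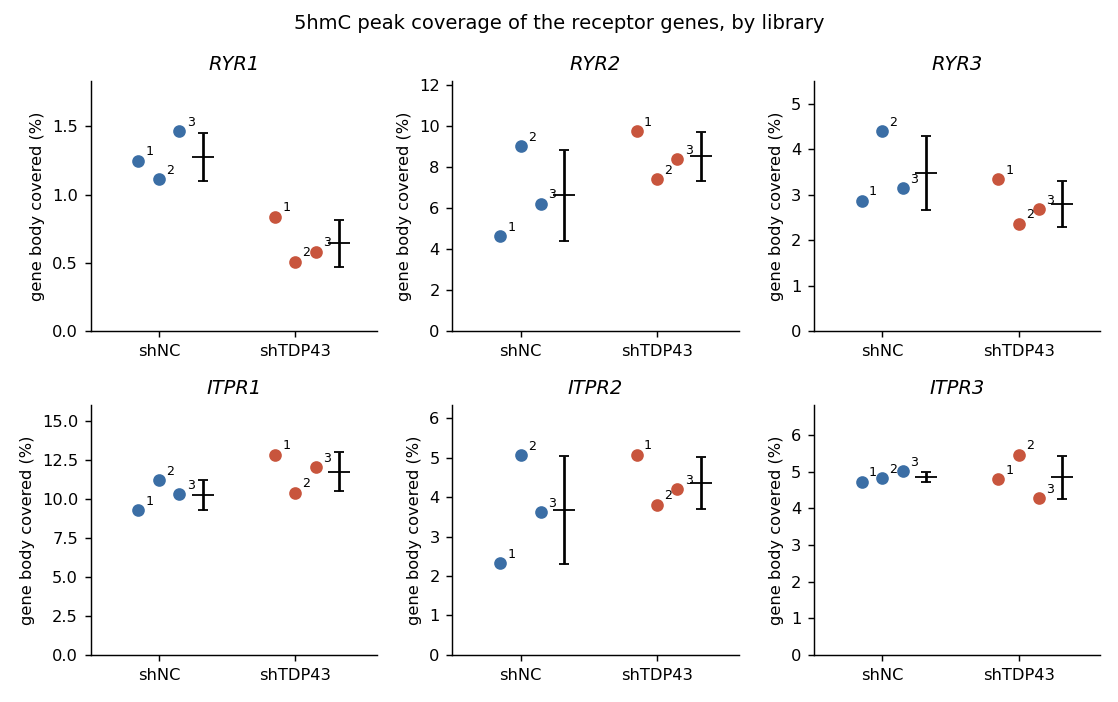
Percent of each gene body covered by called 5hmC peaks (y axis, from 0, scale differs by gene) in the 3 shNC and 3 shTDP43 libraries, numbered by replicate; the black dash and bar are the mean ± SD. Only in RYR1 do the groups not overlap, with shNC at 1.11 to 1.46% and shTDP43 at 0.510 to 0.837%.

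RYR2, the largest member (chromosome 1, 237042184 to 237833988 on hg38, 792 kb), was covered over 4.64%, 9.04% and 6.22% in shNC libraries 1 to 3 and over 9.77%, 7.42% and 8.41% in shTDP43 libraries 1 to 3. The second shNC library lay among the shTDP43 values, so the groups overlap. The means were 6.63% ± 2.23 and 8.54% ± 1.18 (SD, n = 3 each). In peaks, RYR2 held 62, 97 and 76 against 110, 92 and 94, which overlap. With equal numbers of peaks per list they lay apart (62, 76 and 70 against 95, 92 and 83).

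ITPR1 (chromosome 3, 4493348 to 4847506, 354 kb) was covered over 9.27%, 11.2% and 10.3% in shNC libraries 1 to 3 and over 12.8%, 10.4% and 12.04% in shTDP43 libraries 1 to 3, with means of 10.3% ± 0.971 and 11.8% ± 1.24 (SD, n = 3 each). Here the second shTDP43 library lay inside the range of shNC. Its peak numbers did not overlap, at 39, 41 and 39 in shNC and 48, 46 and 45 in shTDP43 libraries. They did overlap at a −log10 q of at least 5 (33 to 38 against 37 to 41). With equal numbers of peaks per list they lay apart (39, 31 and 36 against 40, 45 and 41).

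ITPR2 (chromosome 12, 26335352 to 26833194, 498 kb) was covered over 2.32%, 5.06% and 3.62% and over 5.08%, 3.81% and 4.20%, with means of 3.67% ± 1.37 and 4.36% ± 0.650 (SD, n = 3 each). The groups overlapped, with the first shNC library the lowest of all 6. It held 23, 41 and 31 peaks in shNC and 41, 31 and 34 in shTDP43 libraries. The long noncoding RNA gene ITPR2-AS2 overlaps ITPR2 (26335352 to 26422804), with 1383 to 3440 bp in peaks. Peaks there cannot be assigned to 1 of the 2 genes. The same holds for peaks on LOC124902903 and LOC101929091, which also overlap ITPR2.

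RYR3 (chromosome 15, 33310967 to 33866102, 555 kb) was covered over 2.87%, 4.40% and 3.15% in shNC and over 3.34%, 2.36% and 2.69% in shTDP43 libraries, with means of 3.47% ± 0.816 and 2.80% ± 0.499 (SD, n = 3 each). Its groups overlapped, and it held 28, 42 and 34 against 34, 25 and 28 peaks. The end of RYR3 overlaps AVEN, an apoptosis inhibitor gene, and no peak lay in the shared part.

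RYR1 (chromosome 19, 38433691 to 38587564, 154 kb) was the one member whose coverage did not overlap between the groups. It was covered over 1.25%, 1.11% and 1.46% in shNC and over 0.837%, 0.510% and 0.580% in shTDP43 libraries, with means of 1.27% ± 0.177 and 0.642% ± 0.172 (SD, n = 3 each, ratio 0.504). This rests on few peaks, 4 in each shNC library and 3, 2 and 2 in shTDP43 libraries. The peak numbers overlapped at a −log10 q of at least 5 (3 to 4 against 1 to 3). With equal numbers of peaks per list they lay apart (4, 3 and 3 against 2, 2 and 1).

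ITPR3, the shortest (chromosome 6, 33621322 to 33696562, 75.2 kb), was covered over 4.73%, 4.83% and 5.01% in shNC and over 4.79%, 5.47% and 4.28% in shTDP43 libraries, with means of 4.86% ± 0.142 and 4.85% ± 0.595 (SD, n = 3 each). It held 3, 4 and 4 against 5, 6 and 5 peaks. The number of peaks was higher in every shTDP43 library while the length they covered was not. At a −log10 q of at least 5 the numbers overlapped, at 3, 3 and 4 against 5, 4 and 4, and they also overlapped with equal numbers of peaks per list.

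Over the genes as a whole, the members' counts stand beside those over all genes as follows. Coverage lay apart with shTDP43 lower in 1 member (RYR1) and with shTDP43 higher in none, against 18.3% and 3.34% of the 10076 genes with a mean coverage of at least 1%. Peak numbers lay apart with shTDP43 higher in 2 members (ITPR1 and ITPR3) and lower in 1 (RYR1), against 1.83% and 6.95% of those genes. RYR1, with a mean coverage of 0.958%, is itself not among those 10076 genes. The rule that formed the set used these values, so nothing is read from the counts.

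The lists differ in total length, and relative to that length more members lay apart. Per 100 Mb covered by the list, a scale added after the data were seen, RYR2 was covered over 5.74%, 8.12% and 7.32% in shNC and over 9.89%, 9.49% and 9.41% in shTDP43 libraries. ITPR1 had 11.5%, 10.1% and 12.1% against 13.0%, 13.3% and 13.5%, and ITPR2 had 2.87%, 4.55% and 4.26% against 5.14%, 4.87% and 4.69%. RYR3 went the other way, with 3.55%, 3.96% and 3.70% against 3.38%, 3.02% and 3.01%, as did RYR1, with 1.54%, 1.00% and 1.72% against 0.847%, 0.652% and 0.649%. ITPR3 overlapped. On that scale 7.43% of the 10076 tested genes, which do not include RYR1, lay apart with shTDP43 higher and 12.1% with it lower. In the limma fit described below, run on this scale, 0 of the 5 members included were called (adjusted p 0.352 to 0.966). The rescaled values come from the coverages that formed the set, so nothing is read from them.

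In the fit over all genes, with limma on log2(percent + 1) after centring each library, 5 members had a mean coverage of at least 1% and were included. RYR1 was not. 0 of the 5 had a Benjamini-Hochberg adjusted p under 0.05 (0.330 to 0.835 in limma), where 0.685% of 10076 genes did (0.179% with shTDP43 higher and 0.506% with it lower). At an unadjusted p under 0.05 the count was 2 of the 5 (RYR2 and ITPR1), beside 13.5% of all genes. The log2 difference, shTDP43 minus shNC, was 0.45 (SE 0.17) for RYR2, 0.34 (SE 0.19) for ITPR2, 0.28 (SE 0.10) for ITPR1, 0.09 (SE 0.17) for ITPR3 and -0.13 (SE 0.14) for RYR3. Their median was 0.28, against 0.02 over all genes, and 4 of 5 were positive, against 52.2% of all genes. The set was formed on this contrast, so nothing is read from these counts, p-values or the median. Without the first shNC library the log2 difference of RYR2 was 0.30 and that of ITPR2 0.15. That of ITPR3 was -0.01 without centring, without the second shNC library or with the stricter q, and -0.05 without the second shTDP43 library, so it has no steady sign.

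Along the genes, the differences were not even. The shTDP43 libraries lay above the shNC libraries in the first and second segments of RYR2, segments 2 and 3 of ITPR1 and the first of RYR3. They lay below in the first segment of ITPR3 and in the last of ITPR1, ITPR3 and RYR3, among others given below. Each gene was cut into 10 equal parts, counted from the 5′ end (for ITPR2, from the lowest coordinate). Of these 60 segments, 48 had a peak in some list, and in 6 the groups lay apart with shTDP43 higher and in 7 with it lower. Over the segments of all 10076 genes with a peak in some list, the shares were 4.82% and 12.6%. Those genes are of any length from 5 kb, so their segments are not matched in length to those of the members. They do not include RYR1, which holds 1 of the 7 lower segments. Nothing is read from these counts either, since they come from the same contrast.

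RYR2 had its highest mean coverage, in both groups, in its second segment. That segment, 79.2 kb long, was covered over 10.9%, 16.5% and 11.5% in shNC and over 19.2%, 17.4% and 19.3% in shTDP43 libraries, so that every shTDP43 library lay above every shNC library. The first segment lay apart as well, with 4.48%, 6.77% and 4.52% against 8.50%, 7.36% and 9.54%. Coverage was 1.69% ± 0.649 and 2.31% ± 0.528 in the eighth segment, and a further block of 5hmC stood in the ninth, with 11.6% ± 4.42 and 12.7% ± 2.67 (SD, n = 3 each), where the groups overlapped.

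ITPR1 was densely covered at its 5′ end. Its first segment (35.4 kb) was covered over 25.8%, 33.4% and 31.5% in shNC and over 35.6%, 28.0% and 35.6% in shTDP43 libraries, and the groups overlapped. In the second segment they did not, with 18.3%, 24.3% and 22.6% against 33.4%, 25.2% and 31.9%. The third segment had 9.89%, 12.2% and 10.3% against 20.1%, 13.0% and 22.99%, the second shTDP43 library being the lowest of its group. The long noncoding RNA gene LOC105376933 lies in this segment, with 887 to 952 bp in peaks over the lists and the groups overlapping. Those peaks cannot be assigned to 1 of the 2 genes.

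At the 3′ end of ITPR1 the order turned. The last segment was covered over 14.9%, 16.7% and 13.9% in shNC and over 11.6%, 10.0% and 9.91% in shTDP43 libraries, and the eighth over 5.70%, 3.68% and 4.49% against 2.66%, 2.80% and 2.73%. A long noncoding RNA gene, LOC124906209, overlaps this end of ITPR1 (4814292 to 4847506), so peaks there cannot be assigned to 1 of the 2 genes. Over all of ITPR1 these opposite differences are summed.

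**Figure D2:**
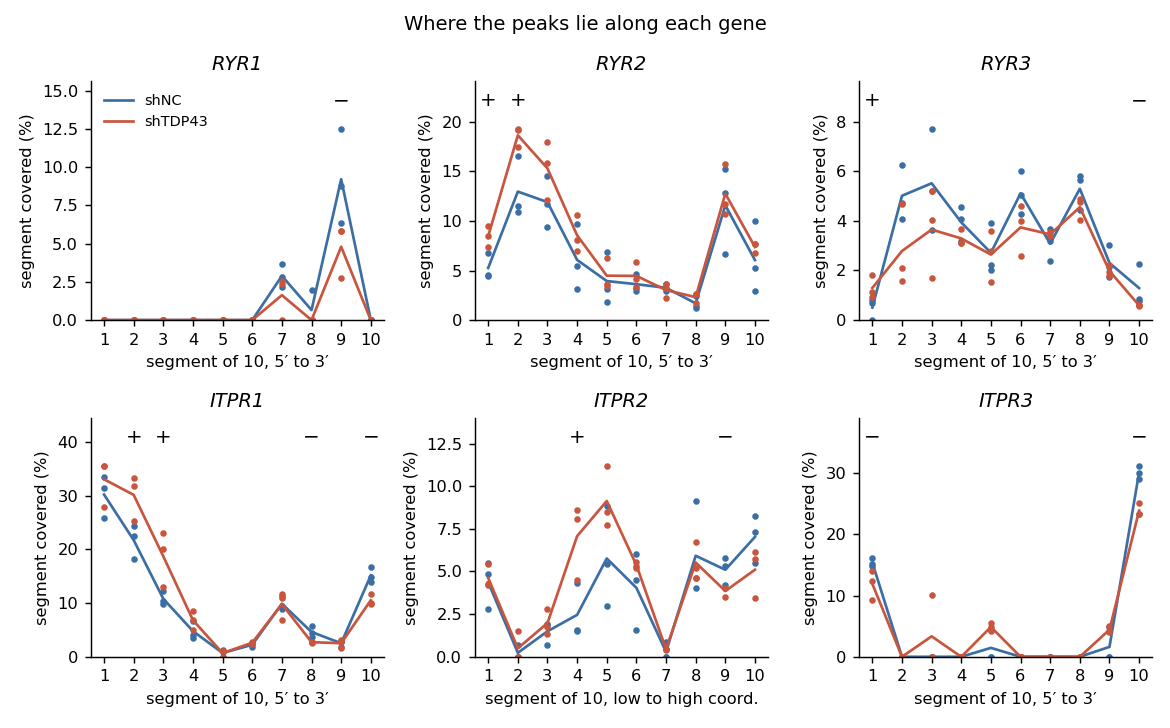
Percent of each segment of the gene covered by peaks (y axis, from 0, scale differs by gene) against the segment (x axis). Points are libraries and lines group means, and + or − marks a segment in which every shTDP43 library lies above or below every shNC library. RYR2 carries + in segments 1 and 2, ITPR1 + in 2 and 3 and − in 8 and 10, RYR3 + in 1 and − in 10, ITPR3 − in 1 and 10, ITPR2 + in 4 and − in 9, and RYR1 − in 9.

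ITPR3 carried peaks mainly at its 2 ends. Its last segment (7.52 kb) was covered over 31.3%, 29.0% and 30.1% in shNC and over 23.3%, 23.3% and 25.1% in shTDP43 libraries. The first had 16.1%, 14.9% and 15.2% against 14.1%, 12.4% and 9.25%, and 5 segments had no peak in any list. In the fifth segment all 3 shTDP43 libraries and the second shNC library had a peak, which adds to the higher peak number of the shTDP43 group.

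RYR3 was covered thinly along its length. No segment exceeded 7.71% in any library. The last lay apart with 0.775%, 2.25% and 0.839% in shNC against 0.611%, 0.551% and 0.607% in shTDP43 libraries. The first lay apart with 0 to 0.823% against 0.948 to 1.82%. All of these coverages are low. In RYR1 the ninth segment held most of the peaks, with 8.77%, 6.36% and 12.5% against 5.84%, 2.74% and 5.80%. In ITPR2 the fourth segment from the lowest coordinate had 1.49%, 4.32% and 1.56% against 8.62%, 4.52% and 8.07%, and the ninth 4.20%, 5.79% and 5.31% against 4.05%, 4.02% and 3.49%.

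The most enriched peak region in the set was a region of ITPR1 that every library shared. It spans 3756 bp (chromosome 3, 4549677 to 4553432), about 58.2 kb into the gene, and the authors' fold enrichment of its highest peak was 30.1 to 36.4 over the 6 lists. Regions here are the union of overlapping or adjoining peaks of the lists, and fold and q are the authors' values for single peaks. In RYR2 the region of largest smallest −log10 q lay at 237107618 to 237108953, 66.1 kb into the gene, with a fold of 11.9 to 19.9. In ITPR2 it lay at 26723169 to 26724973 (fold 11.2 to 20.7) and in ITPR3 at 33693854 to 33695021 (6.84 to 11.9), near its 3′ end, beside a region that reaches past the gene into UQCC2. The one region of RYR1 found in all 6 lists lay at 38564658 to 38565962 (3.94 to 6.56). That of RYR3, at 33692391 to 33693757, overlaps the pseudogene C1QBPP3, where reads may be shared with the parent gene elsewhere, so its fold of 5.93 to 8.77 is uncertain.

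Of the 302 merged regions that overlap the members, 106 (35.1%) had a peak in all 6 lists, close to the 35.5% of all 200818 regions. More lists of shTDP43 than of shNC had a peak at 111 of them (36.8%) and fewer at 61 (20.2%), against 25.5% and 28.6% of all regions. The members did not go one way. In RYR2 it was 59 against 21 of 132 regions, in ITPR2 23 against 13 of 56, in ITPR1 19 against 9 of 57 and in ITPR3 3 against 0 of 6. In RYR3 it was 6 against 15 of 46 and in RYR1 1 against 3 of 5. The regions come from the peaks that formed the set, so nothing is read from these shares.

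Regions with a peak in all 3 libraries of a group and in none of the other numbered 9 for shTDP43 and 4 for shNC, where 1.06% and 1.97% of all merged regions were of these kinds. RYR2 held 7 of the 9. They lay at 237098907 to 237099389, 237112605 to 237113064, 237162681 to 237163109, 237179450 to 237180537, 237254472 to 237254956, 237324128 to 237324646 and 237832762 to 237833207. The first 6 fell in the first 282 kb of the gene and the last within its final segment. The widest, of 1088 bp, had a −log10 q of 23.8, 7.95 and 17.7 and a fold of 5.89, 4.16 and 5.48 in shTDP43 libraries 1 to 3. In 5 of the 7 the −log10 q was at least 5 in every shTDP43 library.

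The other 2 shTDP43-only regions stood close together in ITPR1, at 4570646 to 4571266 and 4574433 to 4575300, 77.6 and 81.5 kb into the gene. Their −log10 q was 6.39, 6.86 and 5.51 for the first and 6.65, 3.24 and 6.67 for the second. The shNC-only regions were 1 each in RYR1 (38559538 to 38560066), RYR2 (237146219 to 237146635), RYR3 (33447383 to 33447810) and ITPR2 (26750720 to 26751228). That of RYR1 was the strongest, with a −log10 q of 24.9, 16.5 and 11.6 and a fold of 7.07, 4.31 and 4.49 in shNC libraries 1 to 3, and it makes up part of the ninth segment described above. Without the second shNC library the shTDP43-only regions numbered 26, of which 18 were in RYR2, and without the second shTDP43 library 18. Over all merged regions this kind rose as well, from 2126 to 6810 and 4699. The shNC-only regions numbered 8 and 7 without the first and the third shNC library, and 9 without the first shTDP43 library. Over all merged regions that kind rose from 3951 to 7254, 6401 and 6477, in the same order. Leaving out a library loosens the rule for every region, so nothing is read from these rises.

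**Figure D3:**
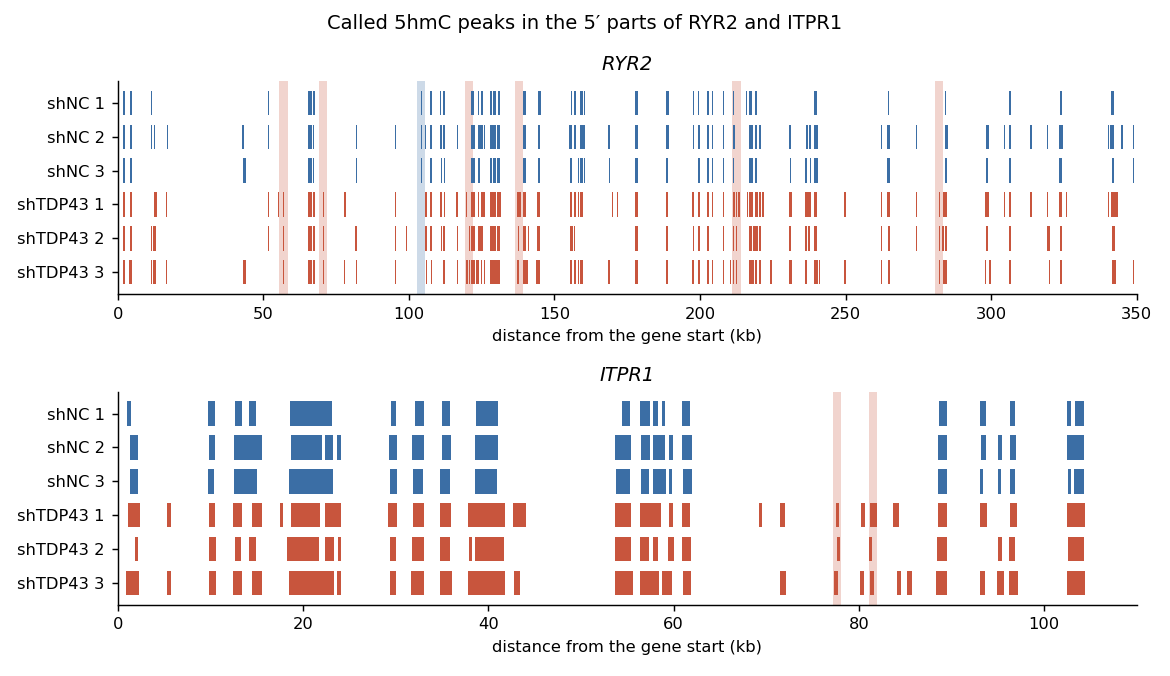
Called peaks (bars, to scale) in each library against the distance from the gene start in kb, for the 5′ parts of RYR2 and ITPR1. Shaded bands, drawn wider than the regions, mark those with a peak in all 3 libraries of one group only: 6 for shTDP43 (red) and 1 for shNC (blue) in RYR2, and 2 for shTDP43 in ITPR1.

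The 100 kb on either side of each gene were described as well, a step added after the data were seen. Flank coverage was not used in forming the set. Some peaks counted for the members, as in ITPR2 and ITPR3, cross a gene end and reach into a flank. Upstream of ITPR1, where SUMF1 lies, a sulfatase-modifying enzyme gene, the shNC libraries were covered over 2.53%, 3.73% and 1.498% and shTDP43 libraries over 3.94%, 4.08% and 3.75%. Downstream of RYR1, over MAP4K1, EIF3K and the actinin gene ACTN4, they were covered over 5.74%, 5.63% and 4.73% and over 3.59%, 3.07% and 2.76%. In neither flank did the groups overlap. The two-sided exact permutation p was 0.1 for each, the smallest that 3 against 3 libraries allow, and 0.45 after adjustment over the 12 flanks. A p of 0.1 lies above the threshold used in the fit. No flank could therefore be called, whatever its values, and nothing is read from the flank p-values. The other 10 flanks overlapped (exact p of 0.2 to 1). Over the flanks of all tested genes with a peak in some list, 2.58% lay apart with shTDP43 higher and 22.8% with it lower.

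No other gene of calcium store release and refilling passed the adjusted threshold, which few genes of any kind passed. Of 88 genes on a fixed list, 81 are among the protein-coding genes of at least 5 kb and 71 had enough coverage for the fit. With limma and Benjamini-Hochberg adjustment over all genes, 0 were called in either direction (smallest adjusted p = 0.186), beside 0.685% of all genes. At an unadjusted p under 0.05 in limma there were 12 of the 71, beside 13.5% of all genes. The log2 difference was above 0 in 38 of the 71 and below 0 in 33, with a median of 0.02, the same to 2 decimals as over all genes. Their groups lay apart with shTDP43 higher in 2 and lower in 16, beside 3.34% and 18.3% of all genes.

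Among partners of the ryanodine receptor and junction proteins (20 in the fit, median log2 difference 0.10), JPH2, a junctophilin that ties the store to the plasma membrane, was covered over 1.32%, 0.831% and 0% in shNC and over 1.69%, 1.75% and 1.61% in shTDP43 libraries (log2 difference 0.83, SE 0.36). CALM3, a calmodulin gene of 9.71 kb, had 20.2%, 14.9% and 15.7% against 7.96%, 4.02% and 9.40% (log2 difference -1.09, SE 0.27). Among partners of the IP3 receptor (14 in the fit, median -0.00171), IRAG1, which couples ITPR1 to cGMP signalling, had 2.34%, 2.06% and 2.46% against 3.39%, 2.84% and 3.64% (log2 difference 0.48, SE 0.18). ITPRIPL1, an ITPRIP-like gene of 5.19 kb, had 9.79%, 6.13% and 8.38% against 5.91%, 0% and 0% (log2 difference -2.13, SE 0.73). In a gene so short, few peaks make up these percentages.

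Among genes of IP3 turnover (8 in the fit, median -0.14) was ITPKA, a gene of 9.68 kb for a neuronal kinase that phosphorylates IP3. It had 15.3%, 9.49% and 7.11% against 7.01%, 3.10% and 3.30% (log2 difference -0.997, SE 0.33). In each of these 5 genes the groups lay apart, which is the rule by which they were named, and none passed the adjusted threshold in limma (0.186 to 0.380). That rule took no account of gene length, and JPH2 and IRAG1 were longer (80.6 and 121 kb). Phospholipase C genes, which make IP3, had a median of -0.01 over 11 genes, store-operated entry genes -0.02 over 4, store pumps 0.03 over 3, and mitochondrial uptake genes 0.11 over 6. Cyclic ADP-ribose genes had 0.31 over 2 and luminal buffers -0.08 over 3.

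**Figure D4:**
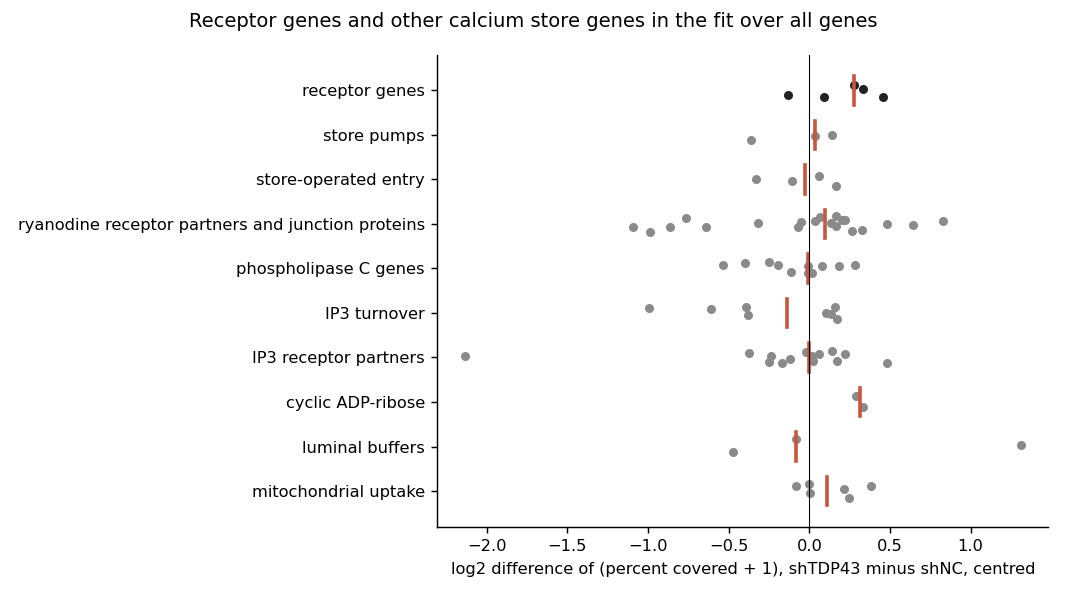
Centred log2 difference of (percent covered + 1), shTDP43 minus shNC (x axis), for the 5 receptor genes in the fit (black) and 71 other calcium store genes by list (grey). Each point is a gene and each red bar the median of its list, 0.28 for the receptor genes.

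The genes whose coverage was most like that of each member over the 6 libraries were found by the Euclidean distance of the centred log2 values among genes of other chromosomes. For RYR2 these were FAM168A and EYA1 (distance 0.22 and 0.23), for RYR3 CLCN4 and AGBL4 (0.11 and 0.16), and for ITPR1 ABCA4 and DISC1 (0.15 and 0.19). For ITPR2 they were USP47 and CHUK (0.13 and 0.18) and for ITPR3 MYPOP and GSTO2 (0.17 and 0.21). EYA1 was covered over a mean of 5.96% in shNC and 8.49% in shTDP43 libraries, near the 6.63% and 8.54% of RYR2. The likeness is a description over 6 libraries and reflects level as much as pattern.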

How the data were processed

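Peak lists of 6 hMe-Seal libraries (3 shNC, 3 shTDP43) were used; the input library was not used here. The submitters' processing notes name Bowtie2 2.4.4, SAMtools, MACS2 2.2.6 and build hg38 without their roles. Whether the input served as control is not given in the sources used here. Each deposited list gives for each peak a score, a fold enrichment (ratio), and the p-value and q-value as −log10, which are the authors' values and served to describe or filter peaks. Everything else was computed from peak positions on chromosomes 1 to 22 and X, with gene spans and promoter windows from RefSeq (GRCh38.p14, the same build). The gene table gives no exons, so exon and intron were not assigned.

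Coverage was the percent of a gene in peaks; a peak counted for a gene at 1 bp of overlap. Among genes of 5 kb or more, those with mean coverage of 1% or more entered the test on log2(percent + 1), each library's median deviation removed, with limma 3.58.1 (variance trend, R 4.3.3) and Benjamini-Hochberg adjustment at 0.05. This scale understates changes of sparsely covered genes. Centring removed a median shift of -0.08. The remaining work was done in Python 3.11.15 (pandas 2.3.3, numpy 2.4.6, scipy 1.17.1). The scripts were tested on simulated data.

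The members and lists were chosen with earlier results of these data known. One gene of the noradrenergic marker list is not reported here, and the list's values were computed without it. Named pathway genes were those past the threshold and, per direction, up to 3 with the largest log2 difference whose groups did not overlap; all group-specific regions of the members were named. The flanks and the scale per 100 Mb were added after the data were seen. Alternatives were a stricter q, equal peak numbers, other pseudocounts, filters and centring, peaks per 10 kb, a replicate block, wider joining and leaving out each library.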

Additional observations from a re-analysis of the deposited data

How the results depend on the processing

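In limma no receptor gene was called under any of the 16 alternatives of the fit, with adjusted p from 0.158 to 0.993 over those on the percent scale and 0.382 to 0.800 in peaks per 10 kb. RYR2, ITPR1 and ITPR2 had a positive and RYR3 a negative log2 difference in all 16 fits on the percent scale (the main one and 15 alternatives), while ITPR3 was negative in 4. Their 80 differences under alternatives moved by more than the replicate SD in 4, without centring for RYR3 (-0.23) and ITPR1 (0.18) and in peaks per 10 kb for RYR2 and ITPR1. RYR1 entered the fit only without the filter or without shTDP43 library 2 or 3, at -0.33 to -0.38. Of the peak-number differences, those of ITPR1 (3.67 peaks) and ITPR3 (1 peak) moved at the stricter q.

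Over all genes, 18 were called higher and 51 lower. The counts became 97 lower at a −log10 q of at least 5, 30 higher with equal peak numbers, 95 lower without centring (13 higher, so that the share of lower calls rose) and 94 lower in peaks per 10 kb. Leaving out one library gave 4 to 37 higher (37 without shNC library 2, 8 without shTDP43 library 3) and 9 to 71 lower, both lowest without shNC library 3. Of the pathway genes, 1 was called at the stricter q (CASQ1), 1 in peaks per 10 kb (PLCD3, higher) and 1 without shTDP43 library 1 (ITPRIPL1), and 0 without any other single library.

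The shNC-only regions of the members numbered 4 and the shTDP43-only regions 9; with equal peak numbers the latter were 15. Leaving out one library gave 5 to 9 and 9 to 26. The highest came without shTDP43 library 1 for the former and without shNC library 2 for the latter. The latter also numbered 18 without shTDP43 library 2, and the former 8 and 7 without shNC libraries 1 and 3. Over all merged regions both kinds also rose whichever library was left out, and the shTDP43-only kind rose with equal peak numbers.

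With the replicate block, 0 genes were called higher and 0 lower in limma (1052 with an unadjusted p under 0.05). The labels do not say that a number is shared, and same-numbered libraries did not deviate together (r across genes of -0.13, -0.08 and -0.01). Such correlations cannot show whether libraries shared a culture or processing, so whether the numbers pair the libraries is not known. Read depth is unknown, so regions near the calling threshold may differ between lists by depth, which was not tested.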
